A study of Mus musculus with 20 samples.

Results

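WT_1-4 is a wild type mouse line of induced pluripotent stem cells (iPSCs), and the 5 libraries of its embryoid body (EB) culture on days 0, 3, 5, 7 and 14 form a time course of a single line. They are 5 of the 20 libraries of the series. The members are given by the line and the day in the sample titles. The other 15 libraries come from 3 lines sampled on the same days: WT_20d, also labelled wild type, and N4_5-8 and N4_5-23, labelled as Nox4 knockout. All 4 lines were kept on mitomycin-treated embryonic fibroblast feeders with LIF, then put in hanging drops without LIF to aggregate, and plated on gelatin after aggregation. The iPSCs were made from embryonic fibroblasts with retroviruses carrying Oct4, Sox2, Klf4 and c-Myc and a puromycin selection, so the RNA of each factor can come from the viral copy or from the cell's own gene. WT_1-4 is 1 line, and each day has 1 library. The sample titles give day 14 as the last day while the protocol in the labels gives day 10 after plating. For these libraries the sources do not state whether day 0 lies before aggregation or at plating. In a separate measurement of reactive oxygen species, the study labels day 0 as embryonic stem cells.

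Embryoid bodies are aggregates in which pluripotent cells leave the self-renewing state and form derivatives of the germ layers. Cells at the surface of such aggregates form an epithelium on a basement membrane, while the interior receives less oxygen. Genes of the naive state, such as Nanog, Esrrb and Zfp42, normally fall first, primitive streak genes such as T follow, and genes of endoderm, heart, blood and nerve appear later.

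The 5 libraries held between 21065890 and 26237571 counts, so that 3 counts, taken as the floor of detection, corresponded to at most 0.142 CPM (counts scaled to a common library size). All CPM values below were scaled with TMM factors (trimmed mean of M values). With 1 library per day there is no spread between replicates within the line, and the exact Poisson 95% intervals of the counts cover counting error only. Tests borrowed the spread from the other 3 lines through a model with a term for each line. This spread is the disagreement between the day courses of WT_20d and the 2 knockout lines, not variation between replicates. The false discovery rate (FDR) is that of edgeR's quasi-likelihood test over 20524 genes. From here on, rose and fell are used of genes with an FDR under 0.01 between day 0 and day 14.

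The label of pluripotent cells was first set against the markers of that state. In WT_1-4, Zfp42, Prdm14 and Dppa3 had 0 counts on all 5 days, and Esrrb lay between 0.0379 and 0.199 CPM. Nanog, a core transcription factor of the naive state, lay at 0.038, 0.874, 0.783, 0.72 and 0.198 CPM on days 0, 3, 5, 7 and 14. The highest value of Nanog in WT_1-4 was thus below 1 CPM, against 383 CPM in WT_20d on day 0. In N4_5-8 and N4_5-23 Nanog was at 0.359 and 0.149 CPM on day 0. Of the 15 genes of the naive list, 8 did not reach 50 counts in any WT_1-4 library, while over all genes 13512 of 55573 did. Pou5f1, which encodes Oct4, was at 5760 CPM on day 0 and 1278 CPM on day 14. Fgf4 was at 146 and 58.4 CPM on these days. The day 0 library therefore went with its label for Pou5f1 and Fgf4 and against it for most naive markers, and the part of the viral copies in Pou5f1 was not tested.

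**Figure D1:**
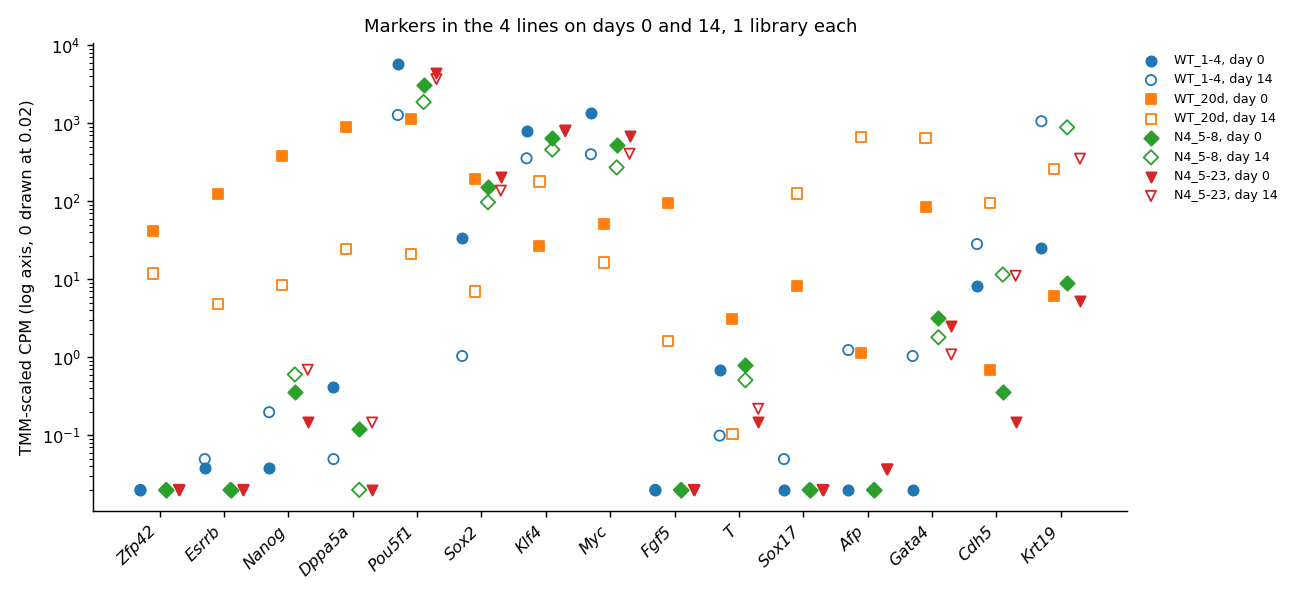
TMM-scaled CPM (log axis, 0 drawn at 0.02) of marker genes in the 4 lines, filled symbols for day 0 and open symbols for day 14, 1 library each. In WT_1-4 Nanog is at 0.038 CPM on day 0 and Pou5f1 at 5760 CPM, while WT_20d has Nanog at 383 CPM and Afp at 667 CPM on day 14.

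Several defining genes of endoderm, primitive streak and heart muscle were near 0 in WT_1-4 on all days, while some genes of muscle, vessel and nerve, given further on, were present from day 0. Afp, a fetal serum protein of visceral endoderm and liver, had 0 counts until day 7 and 25 counts on day 14. Sox17 and Foxa2, transcription factors of endoderm, did not exceed 14 and 8 counts. T, the classical gene of the primitive streak, lay between 2 and 22 counts. Gata4, a factor of endoderm and heart, had 0, 1, 7, 78 and 21 counts on days 0, 3, 5, 7 and 14, so its highest value fell on day 7. Of the endoderm transcription factors 2 of 9 reached 50 counts on any day, and of the primitive streak genes 2 of 13. Of the primitive blood genes 4 of 14 did, and of the cardiac genes 10 of 23. Over all genes 13512 of 55573 did, so these shares alone do not mark the lists as low. Nkx2-5, Tbx5, Myl2 and Nppa, defining genes of heart muscle, never exceeded 4 counts. In bulk RNA, fewer cells of a type and less RNA per cell cannot be told apart.

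Over all genes, WT_1-4 lay nearer to the Nox4 knockout lines than to the other wild type line on days 0 to 7. On day 0 the median absolute difference on the log2(CPM + 1) scale was 0.282 to N4_5-23, 0.311 to N4_5-8 and 0.578 to WT_20d. On day 0, 11.2% of 13512 genes differed by 4-fold or more from WT_20d, against 3.02% from N4_5-8 and 3.2% from N4_5-23. On day 14 the differences were 0.532, 0.731 and 0.703, in the order N4_5-23, N4_5-8 and WT_20d. These are levels in single libraries, and no test of the distances was made.

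The size of the change at each step was uneven. Of the 13512 genes with at least 50 counts in 1 of the 5 libraries, 78 (0.577%) were past 4-fold higher and 7 (0.0518%) past 4-fold lower on day 3 than on day 0. From day 3 to day 5 only 2 genes were past 4-fold higher (0.0148%) and 2 lower (0.0148%). From day 5 to day 7 there were 57 higher (0.422%) and 10 lower (0.074%). From day 7 to day 14 there were 36 higher (0.266%) and 119 lower (0.881%). This last split moved with the scaling, to 67 higher and 84 lower with upper quartile scaling and to 18 and 151 with total counts. Most genes past 4-fold were thus higher on day 3 than day 0 and on day 7 than day 5, and lower on day 14 than day 7. Over the whole course 902 genes (6.68%) were past 4-fold higher and 651 (4.82%) past 4-fold lower on day 14.

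The days 3 and 5 libraries were alike but not the same. Their median absolute change was 0.117 on the log2(CPM + 1) scale, against 0.242 from day 0 to day 3, 0.335 from day 5 to day 7 and 0.414 from day 7 to day 14. The counting intervals of days 3 and 5 overlapped for 9816 of the 13512 genes and were apart for the rest, 2322 higher and 1374 lower on day 5. In the 3 other lines the step from day 3 to day 5 had a median of 0.299, 0.208 and 0.228 (WT_20d, N4_5-8 and N4_5-23), and the step from day 5 to day 7 had 0.199, 0.134 and 0.156. In WT_1-4 the quiet step was therefore from day 3 to day 5, and in the other 3 lines it was from day 5 to day 7. The WT_1-4 day 5 library was nearest to the day 3 library of each other line, with medians of 0.225 to N4_5-8 day 3 and 0.267 to N4_5-8 day 5, of 0.252 and 0.292 for N4_5-23, and of 0.519 and 0.613 for WT_20d. The WT_1-4 day 3 and day 7 libraries were each nearest to the library of the same day in all 3 lines. No test of this difference between 1 line and 3 was made.

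**Figure D2:**
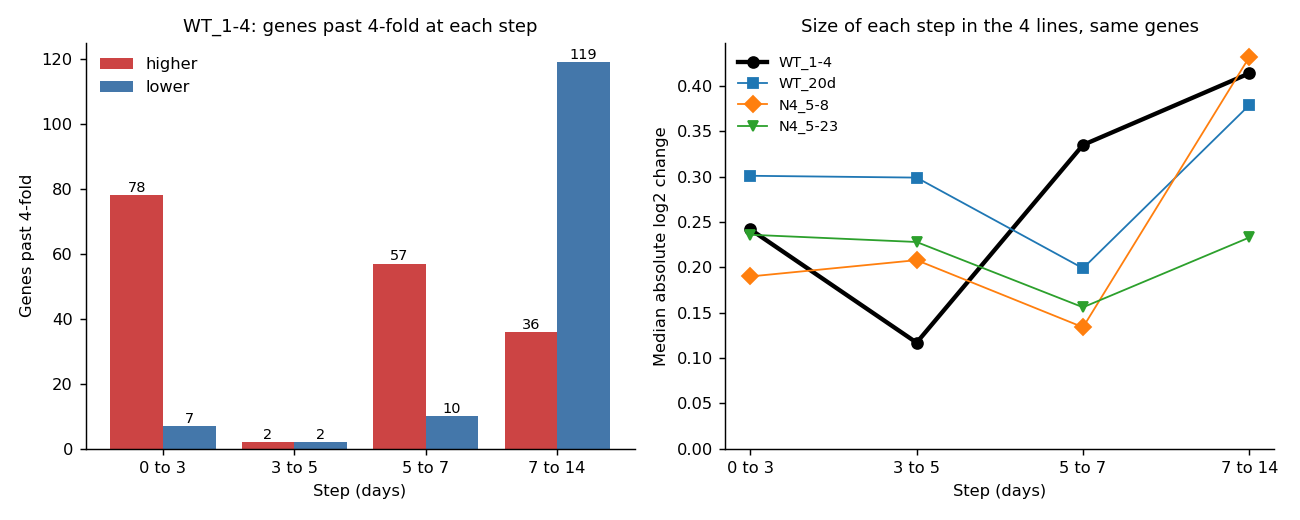
Left, number of genes past 4-fold higher or lower in WT_1-4 at each step between sampled days. Right, median absolute log2 change of the same 13512 genes at each step in the 4 lines: WT_1-4 is lowest from day 3 to day 5 (0.117) and highest of the lines from day 5 to day 7 (0.335).

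In the test with the borrowed spread, 435 genes (2.12%) rose and 727 (3.54%) fell between day 0 and day 14, and 242 genes (1.18%) differed over the 5 days as a whole. Of the 902 genes past 4-fold higher, 34.5% were among those that rose, and of the 651 past 4-fold lower, 60.2% were among those that fell. No single step passed: the counts were 0 for days 0 to 3, 3 to 5, 5 to 7 and 7 to 14 with edgeR, with 636, 105, 1111 and 2072 genes at an unadjusted p under 0.05, and 10, 1, 26 and 239 genes with DESeq2. The calls between day 0 and day 14 rested on the lines that supplied the spread, with 3169 genes without WT_20d, and 0 without N4_5-8 or without N4_5-23. In simulated counts with a change on day 14 alone, this test recovered 11 of 100 genes changed 4-fold and 74 of 100 changed 16-fold, among 19225 genes.

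The order of the changes was read from 1839 genes whose log2(CPM + 1) spanned at least 2 units. Most were highest at an end of the course, 909 on day 14 and 516 on day 0, with 121, 188 and 105 highest on days 3, 5 and 7. The first day at least 1 unit away from day 0 was day 3 for 460 genes, day 5 for 195, day 7 for 759 and day 14 for 425. Among the genes that first moved on day 3, 362 ended above day 0 and 98 below. Among those that first moved on day 14, 110 ended above and 315 below. Gains thus came mostly earlier than losses: the genes past 4-fold higher on day 14 had covered a median of 26.6% of their change by day 3, 31.6% by day 5 and 67% by day 7. The genes past 4-fold lower had covered 12.8%, 14% and 44.9%. Among the same 1839 genes, 103 were transient, at least 1 unit above both ends on day 3, 5 or 7, and 14 dipped.

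**Figure D3:**
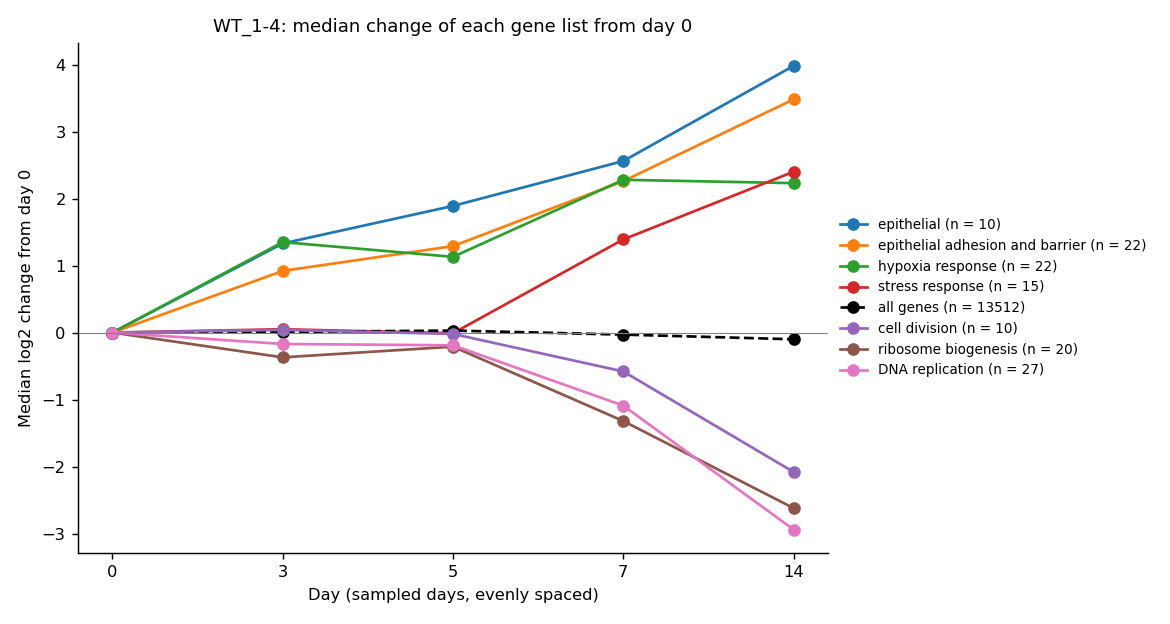
Median log2 change from day 0 of each gene list in WT_1-4, over the members with at least 50 counts, against all 13512 genes (dashed). The epithelial and hypoxia lists are above 1 by day 3, whereas the DNA replication, ribosome biogenesis and cell division lists stay within 0.4 of 0 until day 5 and then drop.

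Most epithelial genes were higher on day 14. Of the 10 genes of the epithelial list with at least 50 counts, 9 were past 4-fold higher on day 14 (background 6.68%) and 0 lower. Of its 14 genes tested, 6 rose (background 2.12%). The list was chosen with earlier results of these data known, so these counts are a description. The median of the list was 1.33, 1.89, 2.56 and 3.98 log2 units above day 0 on days 3, 5, 7 and 14, against 0.01, 0.03, -0.03 and -0.10 for all genes. On day 14 the same median was 1.68 in WT_20d, 2.04 in N4_5-8 and 1.22 in N4_5-23. The summed level of the 14 genes went from 67.8 CPM on day 0 to 1680 on day 14 in WT_1-4. In the same order of lines as above the sums went from 1290 to 3440, from 49.7 to 1140 and from 32.7 to 470 CPM. Krt19, a keratin of simple epithelia, was at 25, 153, 138, 539 and 1063 CPM on days 0, 3, 5, 7 and 14. It rose by 5.41 ± 0.735 (SE) on the log2 scale with an edgeR FDR of 0.00127. Krt8 and Krt18, which pair to form the keratin filaments of simple epithelia, went from 4.98 to 136 CPM and from 0.38 to 20.8 CPM, and both rose (FDR 0.00434 and 0.00305 from edgeR). Krt7 was at 0.114, 0.636, 2.91, 4.82 and 45.3 CPM, with 3 counts on day 0 and 914 on day 14. Krt7 rose, with most of its gain in CPM at the last step, and both Krt7 and Krt8 were higher on each later day. Cldn4 and Cldn7, claudins of tight junctions, went from 0.608 to 23.2 CPM and from 0.228 to 18.5 CPM, and both rose.

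Cdh1, the cadherin of epithelial junctions, was at 18.9, 51.4, 77, 102 and 179 CPM. It gained at each step, and its edgeR FDR was 0.0161. Cdh2, the cadherin of mesenchymal and neural cells, was at 19.6, 18.6, 16.3, 7.85 and 2.13 CPM with an FDR of 0.163 from edgeR. The 2 cadherins were thus level on day 0, and Cdh1 was higher on day 14. Epcam was at 4.44 CPM on day 0 and 105 CPM on day 14, with an edgeR FDR of 0.0327. Keratins of stratified epithelia stayed low: Krt5 did not exceed 35 counts and Krt14 did not exceed 93 counts. Trp63, the regulator of basal epithelium, did not exceed 24 counts.

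A second list, of epithelial adhesion and barrier genes, was put together after the values had been seen, so its counts are a description. Of its 22 genes with at least 50 counts, 19 were past 4-fold higher on day 14 (background 6.68%) and 0 lower. Itgb4, the integrin subunit of hemidesmosomes, was at 59.5, 184, 262, 616 and 1447 CPM, higher on each later day. Itgb4 rose by 4.6 ± 0.614 (SE) log2 units with an edgeR FDR of 0.00117. Lamb3, a laminin chain, and Col17a1, a collagen of hemidesmosomes, were at 89.2 and 21.4 CPM on day 14 against 1.14 and 0.456 CPM on day 0 (edgeR FDR 0.0184 and 0.0381). Jup, the junction protein plakoglobin, went from 61 to 372 CPM and rose. The median of this list on day 14 was 3.48 log2 units in WT_1-4, 0.89 in WT_20d, 2.27 in N4_5-8 and 1.80 in N4_5-23.

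**Figure D4:**
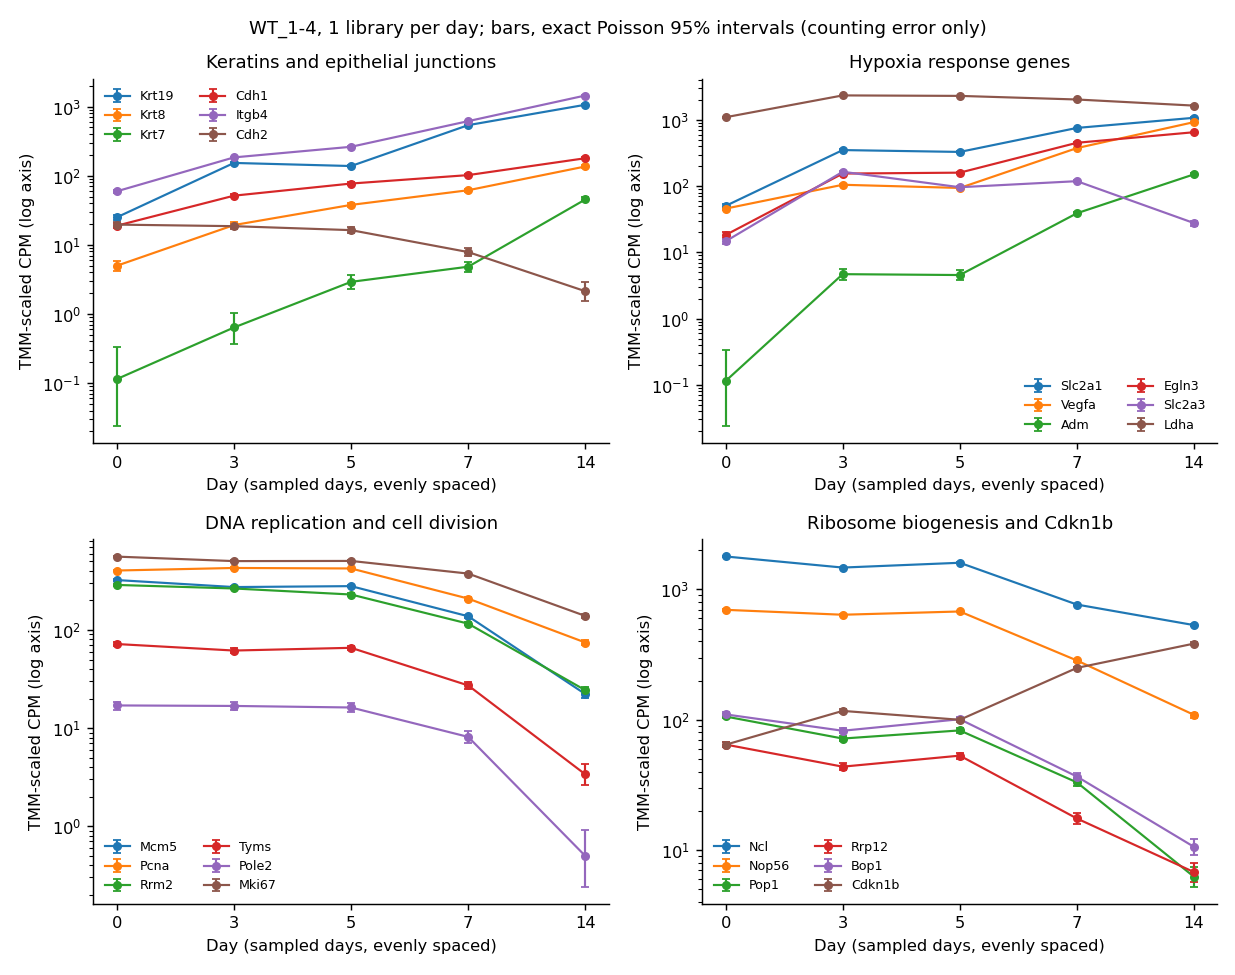
TMM-scaled CPM (log axis) of 6 genes in each of 4 groups over the sampled days in WT_1-4, 1 library per day, with exact Poisson 95% intervals of the count. Krt19 goes from 25 to 1063 CPM and Slc2a1 from 50.3 to 1078 CPM, while Mcm5 goes from 323 to 22.2 CPM with its drop after day 5.

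Some genes of the hypoxia response were higher on day 14, with part of the difference present by day 3. This list holds known targets of the hypoxia-inducible factors and was also assembled after the values had been seen. Of its 22 genes with at least 50 counts, 11 were past 4-fold higher on day 14 (background 6.68%) and 0 lower, and 7 of 23 tested rose (background 2.12%). No member passed at a single step. Egln1, Hk2 and Pdk1 were among those that moved little or the other way, at 0.28, 0.44 and -0.69 log2(CPM + 1) units from day 0 to day 14. Its median was 1.35 log2 units above day 0 on day 3, 1.13 on day 5, 2.28 on day 7 and 2.23 on day 14. Slc2a1, the glucose transporter GLUT1, was at 50.3, 351, 329, 758 and 1078 CPM. Slc2a1 had thus taken much of its change by day 3, stood still until day 5 and then gained again (edgeR FDR 0.00532). Vegfa, the angiogenic factor, was at 45.8, 105, 94, 376 and 928 CPM and rose by 4.34 ± 0.651 (SE) log2 units with an edgeR FDR of 0.00171. Egln3, an oxygen-sensing prolyl hydroxylase, went from 18.3 CPM on day 0 to 155 on day 3 and 653 on day 14 and rose (edgeR FDR 0.00432).

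Adm, which encodes the vasodilator adrenomedullin, had 3 counts on day 0 and was at 4.69, 4.55, 39 and 151 CPM on the later days. Adm gained 7.09 units on the log2(CPM + 1) scale and rose with an edgeR FDR of 0.00215. Slc2a3, the glucose transporter GLUT3, did not follow this course. It was at 14.7, 165, 96.4, 119 and 27.7 CPM, high on the 3 middle days and low at both ends, with an edgeR FDR of 0.0156 over the 5 days. Ldha, lactate dehydrogenase, was at 1099 CPM on day 0, 2348 on day 3 and 1647 on day 14 (edgeR FDR 0.486). Of the genes of the factors themselves, which were looked up after the targets, Epas1 was at 119 CPM on day 0 and 1147 on day 14 and Hif1a at 147 and 327 CPM (edgeR FDR 0.0141 and 0.195). The list's median on day 14 was 1.03, 1.91 and 1.66 log2 units in WT_20d, N4_5-8 and N4_5-23. In the same order it was 1.40, 1.26 and 1.09 on day 3 and 1.49, 1.98 and 1.81 on day 5. The early difference was thus present in all 4 lines, and on day 5 it was smallest in WT_1-4.

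The promoters of these genes were examined because the factors bind a short core sequence. Of the 250 bases before the start site given by RefSeq (GRCm38.p6), 20 of the 23 genes had an entry, and 13 (65%) held the core ACGTG on either strand. Among 10088 genes with at least 50 counts and an entry the share was 21.8%, among the 627 such genes past 4-fold higher on day 14 it was 15.8%, and among all 27025 promoters it was 16.6%. The windows of 4 genes that rose are shown with the core in capitals, and where the core meets its own complement the 6 bases are in capitals together.
Slc2a1, chr4:119108645-119108744, plus strand: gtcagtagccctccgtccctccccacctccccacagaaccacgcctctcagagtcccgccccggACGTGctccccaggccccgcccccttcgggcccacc
Bnip3, chr7:138909559-138909658, minus strand: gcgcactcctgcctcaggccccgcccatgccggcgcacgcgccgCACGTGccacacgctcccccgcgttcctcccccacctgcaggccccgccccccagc
P4ha1, chr10:59323196-59323295, plus strand: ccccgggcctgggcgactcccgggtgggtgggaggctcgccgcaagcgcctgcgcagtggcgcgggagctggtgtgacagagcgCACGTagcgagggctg
Egln3, chr12:54204025-54204124, minus strand: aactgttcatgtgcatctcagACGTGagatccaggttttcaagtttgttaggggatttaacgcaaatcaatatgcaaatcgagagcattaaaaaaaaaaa
The match lies 36 bases before the start site in Slc2a1, 107 in Bnip3, 16 in P4ha1 and 229 in Egln3, counted from the first base of the match nearest to the start. Adm, Vegfa and Kdm3a, which rose too, held no such match in these 250 bases. Egln1, Hk2 and Ldha were among the genes that held the core and did not pass. A link between the core and the rise was not tested.

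Most genes of DNA replication fell, and most of the difference came after day 5. In the cell division list 6 of 10 genes were past 4-fold lower on day 14 (background 4.82%) and 4 fell in the test (background 3.54%). These 4 were Mcm2, Mcm5, Pcna and Cdk1. Mcm5, a subunit of the replicative helicase, was at 323, 274, 280, 138 and 22.2 CPM. Mcm5 fell by 3.86 ± 0.457 (SE) log2 units with an edgeR FDR of 0.000837. Pcna, the sliding clamp of DNA polymerase, was at 404, 429, 424, 209 and 74.5 CPM, level through day 5 and falling thereafter (edgeR FDR 0.00164). Mki67 and Top2a, markers of cycling cells, were at 560 and 478 CPM on day 0 and at 139 and 164 CPM on day 14, with FDR of 0.0643 and 0.0786 from edgeR.

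In a longer list of 27 DNA replication genes, drawn up after the values had been seen, 24 were past 4-fold lower (background 4.82%) and 25 fell (background 3.54%). The list's median was -0.17 log2 units on day 3, -0.19 on day 5, -1.09 on day 7 and -2.94 on day 14. On day 5 the same medians were -1.08 in WT_20d, -0.71 in N4_5-8 and -1.08 in N4_5-23, each lower than in WT_1-4, and on day 14 they were -1.72, -1.75 and -2.21. Tyms, the thymidylate synthase, went from 71.9 to 3.37 CPM, and Rrm2, a subunit of ribonucleotide reductase, from 288 to 24.3 CPM. Both fell. Pole2, a subunit of DNA polymerase epsilon, was at 17, 16.8, 16.2, 8.12 and 0.496 CPM, with 10 counts on day 14, and fell. Gins2 was at 53.5 CPM on day 0 and 36.4 on day 14 and did not pass (edgeR FDR 0.24).

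Cdkn1b, which encodes the cell cycle inhibitor p27, took the opposite course. It was at 64.4, 117, 100, 250 and 384 CPM and rose by 2.58 ± 0.36 (SE) log2 units with an edgeR FDR of 0.00137. Cdkn1a, which encodes p21, was at 380 CPM on day 0 and 912 on day 14 (edgeR FDR 0.0363). Of the 6 inhibitors 1 rose and 0 fell (background 2.12% and 3.54%).

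For the replication genes the motif searched was TTCCCGC, a form of the site of the E2F factors, or its complement GCGGGAA. Of 21 genes with an entry, 5 (23.8%) held it in the 250 bases before the start, against 7.21% of the 10088 genes with at least 50 counts, 9.9% of the 495 genes past 4-fold lower and 3.84% of all promoters. Windows of 4 of these genes, all of which fell, are shown with the motif in capitals.
Mcm7, chr5:138171994-138172093, minus strand: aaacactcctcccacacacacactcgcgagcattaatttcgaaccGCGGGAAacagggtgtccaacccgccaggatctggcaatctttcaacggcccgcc
Cdc6, chr11:98907968-98908067, plus strand: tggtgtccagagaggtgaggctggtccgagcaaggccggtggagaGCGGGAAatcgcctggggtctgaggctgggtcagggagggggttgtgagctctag
Rrm1, chr7:102441583-102441682, plus strand: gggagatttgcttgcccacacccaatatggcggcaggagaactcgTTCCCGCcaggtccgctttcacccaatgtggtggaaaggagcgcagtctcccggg
Prim1, chr10:128015115-128015214, plus strand: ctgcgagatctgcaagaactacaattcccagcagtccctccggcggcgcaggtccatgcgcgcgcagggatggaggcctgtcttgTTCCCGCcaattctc
The motif begins 165, 138, 67 and 15 bases before the start in these genes. Mcm5 and Tyms held no match in this window. The TATA box TATAAA or its complement was in 7.18% of the promoters past 4-fold higher, in 6.67% of those past 4-fold lower and in 6.09% of the 10088. These matches are descriptions of letters and were not tested.

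Most genes of ribosome biogenesis fell as well. In a list of 20 genes, again drawn up after the values had been seen, 15 were past 4-fold lower on day 14 (background 4.82%) and 18 fell (background 3.54%). Its median was -0.37, -0.21, -1.32 and -2.62 log2 units on days 3, 5, 7 and 14. Pop1, a subunit of the ribonucleases P and MRP that process structured RNA, was at 106, 71.8, 82.9, 33.1 and 6.25 CPM. Pop1 fell by 4.09 ± 0.341 (SE) log2 units and had the smallest edgeR FDR of the genes named here, 0.000484. Nop56, a core protein of box C/D particles, was at 697, 639, 677, 285 and 109 CPM and fell (edgeR FDR 0.000793). Ncl, nucleolin, was at 1788 CPM on day 0, 1600 on day 5 and 532 on day 14 and fell. Npm1, nucleophosmin, went from 2585 to 1188 CPM with an FDR of 0.0195 from edgeR. On day 5 the median in the other lines was -1.21, -0.51 and -0.89 log2 units (WT_20d, N4_5-8 and N4_5-23).

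A minority of the immediate early, heat shock and stress genes passed the test. In the list of immediate early and heat shock genes 4 of 12 were past 4-fold higher on day 14 and 1 lower (background 6.68% and 4.82%), and 3 rose and 1 fell (background 2.12% and 3.54%). Dusp1, a phosphatase of MAP kinases, was at 7.86, 15, 14, 66.4 and 271 CPM and rose by 5.11 ± 0.682 (SE) log2 units with an edgeR FDR of 0.00117. Fos and Atf3 went from 14.8 to 128 CPM and from 0.912 to 20.9 CPM and rose. Hsph1, a chaperone of the heat shock response, was at 202, 131, 114, 54.5 and 36.3 CPM, lower on each later day, and fell (edgeR FDR 0.00273). Egr1 was at 58.2 CPM on day 0 and 50.8 on day 14 (edgeR FDR 0.9).

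In a list of 15 stress response genes drawn up after the values had been seen, 8 were past 4-fold higher on day 14 (background 6.68%) and 0 lower, and 6 rose (background 2.12%). Asns, Sesn2 and Ccng1 were at -0.55, -1.06 and 0.03 log2(CPM + 1) units and did not pass. Nupr1, a small chromatin protein induced by stress, was at 22.8, 18, 15, 116 and 458 CPM, and Gdf15, a secreted stress cytokine, at 1.44, 3.06, 4.33, 8.68 and 60 CPM. Both rose, with edgeR FDR of 0.00489 and 0.00573. Neither gene was above 23 CPM before day 7. Of 8 targets of YAP, listed after the values had been seen, 3 were past 4-fold higher and 1 lower (background 6.68% and 4.82%). In the test 3 of the 8 rose and 0 fell (background 2.12% and 3.54%). Cavin2 was the lower one, at 3.95 CPM on day 0 and 0.0992 on day 14 (edgeR FDR 0.102), and Amotl1 was at 288 and 255 CPM. Ccn1, a matricellular protein and target of YAP, was at 4.33, 15.6, 16.8, 46.3 and 369 CPM and rose (edgeR FDR 0.0011). Amotl2, another YAP target, went from 11.3 to 293 CPM and rose by 4.7 ± 0.53 (SE) log2 units (edgeR FDR 0.000772). The change of Amotl2 had an unadjusted p of 9.55e-05 for a difference from the other 3 lines, where edgeR's FDR was 0.072.

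The 4 reprogramming factors were highest on day 0. Pou5f1 was at 5760, 3266, 3423, 2861 and 1278 CPM, a decline at the first and last steps with level values between. Myc was at 1337, 531, 550, 557 and 401 CPM, with most of its decline by day 3. Klf4 was at 807 CPM on day 0 and 356 on day 14. Sox2 was at 33.6, 16.8, 15.4, 4.32 and 1.04 CPM. None passed between day 0 and day 14 (edgeR FDR 0.318, 0.0136, 0.442 and 0.0259 in this order). Pou5f1 and Myc still stood at 1278 and 401 CPM on day 14, when WT_20d was at 21.3 and 16.4 CPM. In N4_5-8 they were at 1873 and 272 CPM and in N4_5-23 at 3677 and 407 CPM.

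Of the 15 genes of the naive list, 1 rose and 1 fell (background 2.12% and 3.54%). Tfcp2l1, a transcription factor of the naive state, was at 1.79, 1.71, 3.47, 6.14 and 10.3 CPM and rose (edgeR FDR 0.00615). Nr0b1, a nuclear receptor that partners Oct4, was at 45.4, 41.5, 54.9, 7.47 and 0.347 CPM. Nr0b1 held its level until day 5 and fell by 7.01 ± 1.23 (SE) log2 units (edgeR FDR 0.00355). Of the primed list, Pou3f1 and Dnmt3b went from 6.08 to 0.0992 CPM and from 14.9 to 2.28 CPM and fell. L1td1, an RNA-binding protein of pluripotent cells, was at 308, 416, 522, 254 and 88.9 CPM (edgeR FDR 0.28). Lin28a had 0 counts on day 0 and lay at 1.88 to 5.01 CPM later, against 468 CPM in WT_20d on day 0.

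Some genes of muscle, vessel and nerve were present from day 0 on. Tek, an endothelial receptor, was at 282, 302, 380, 349 and 246 CPM and did not pass (edgeR FDR 0.983). Map2, a neuronal cytoskeletal protein, was at 196 CPM on day 0 and 443 on day 14, and Stmn2, another, at 797 and 320 CPM. Ryr2, the calcium release channel of heart muscle, was at 227 and 105 CPM. Des, the muscle filament desmin, was at 1049 and 380 CPM, and none of these 4 passed. Among the smooth muscle genes Tagln went from 1.79 to 32.7 CPM and rose (edgeR FDR 0.00439), with Acta2 at 5.66 and 37.5 CPM (edgeR FDR 0.329). Pecam1 was at 102 CPM on day 0 and 7.39 on day 14 while Cdh5 was at 8.13 and 28.3 CPM, so the endothelial genes had no common direction, with 2 of 9 past 4-fold higher and 1 lower (background 6.68% and 4.82%). Sparc, a basement membrane glycoprotein, was at 287, 675, 741, 1329 and 2089 CPM (edgeR FDR 0.0263), whereas Col4a1 was at 36.3 and 27.3 CPM at the ends.

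Of the 10 fibroblast genes with at least 50 counts, 6 were highest on day 0, 2 on day 7 and 2 on day 14. Col3a1, a collagen of connective tissue, was at 24, 2.18, 2.72, 4.97 and 20.6 CPM, and Col6a1 at 36.4, 7.87, 4.77, 7.55 and 5.85 CPM. Col3a1 dropped at the first step and came back by day 14, while Col6a1 stayed low. Fbln2 was at 23.4, 100, 103, 169 and 136 CPM and thus moved the other way. Lum and Mfap5, defining genes of fibroblasts, did not exceed 8 and 11 counts. The summed level of the 13 listed genes was 179, 174, 187, 279 and 271 CPM. In the test 0 of them rose or fell, which is near the background of 2.12% and 3.54%. The part of feeder cells in the values of day 0 was not tested.

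The largest differences of single genes over the whole course were gains of Alox15, Adm, Krt80, Rgcc and Scnn1a and losses of Msc, Nr0b1, Auts2, Nrcam and Slc26a7. Alox15, a lipoxygenase, was at 0.456, 25.6, 45.4, 132 and 221 CPM, but its edgeR FDR was 0.0526. Scnn1a, a subunit of the epithelial sodium channel, was at 0.684, 2.94, 5.67, 29.6 and 132 CPM and rose by 7.58 ± 1.31 (SE) log2 units (edgeR FDR 0.00324). Msc, a transcriptional repressor of the muscle lineage, was at 62.1, 22.6, 26, 2.28 and 0 CPM with an edgeR FDR of 0.0381. Auts2 was at 169, 62.8, 53.9, 28.9 and 6.59 CPM and fell (edgeR FDR 0.00177). Dna2, a nuclease and helicase of replication, went from 35.4 to 1.04 CPM and fell with an edgeR FDR of 0.000727.

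Genes that were highest on a middle day included Slc26a7, Vat1l and Elavl2 on day 3, Nr0b1, Meox2 and Slc7a11 on day 5, and Igfbp2, Hif3a and Flt1 on day 7. Meox2, a homeobox gene of mesoderm, was at 101, 91.9, 113, 54.4 and 5.16 CPM, high until day 5 and lower thereafter (edgeR FDR 0.0123). Slc7a11, the cystine transporter, was at 8.24, 27.8, 42.2, 10 and 1.49 CPM (edgeR FDR 0.0135 over the days). Igfbp2, which binds insulin-like growth factors, was at 0.38, 57.9, 42.7, 69.5 and 32.5 CPM, with almost all of its gain by day 3. Hif3a was at 0.266, 12.2, 6.19, 46 and 35.2 CPM and Flt1, a VEGF receptor, at 2.58, 24.7, 15, 74.1 and 36.9 CPM. Both were thus higher on day 3 than on day 5 and highest on day 7. Clic5, an intracellular chloride channel protein, had 1 count on day 0, was at 0.447 CPM on day 5 and 17.9 on day 7, and rose with an edgeR FDR of 0.000793.

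The 4 genes past 4-fold between days 3 and 5 all carry provisional names. They are 2210418O10Rik and Gm2436, higher on day 5, and Gm45837 and Gm2004, lower. Gm2436, named here after its values were seen, was counted on day 5 alone, with 118 counts. 2210418O10Rik was at 25.3, 0.278, 26.8, 15.3 and 5.6 CPM. One of the 2 identifiers named Nnt had 0 counts in WT_1-4 except for 305 on day 7. The counting divides reads that fit several copies of a gene, and its part in these values was not tested, so they are given as uncertain.

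Of the mitochondrially encoded genes, mt-Cytb, a subunit of complex III, was at 3097, 1855, 2014, 982 and 431 CPM and fell (edgeR FDR 0.00979). mt-Co1, a subunit of complex IV, was at 9390, 8787, 8205, 8732 and 10201 CPM and did not pass (edgeR FDR 0.92). The share of all counts from the mitochondrial genome was 2.14, 1.94, 1.83, 1.61 and 1.41%, lower on each later day.

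Of 20 genes in the study's endoderm, mesoderm and ectoderm lists, 0 rose and 0 fell with edgeR, where the shares of all genes were 2.12% and 3.54%, so that 0 is near the background. Cldn5, a claudin of vessels, was at 12.2, 35.7, 54, 70 and 23.2 CPM, highest on day 7. Pdgfra, a receptor of mesodermal cells, was at 2.13 CPM on day 0 and 13.3 on day 7, and Eomes at 1.14 and 8.53 CPM. Igf2, the fetal growth factor, was at 3.53, 10.6, 23.5, 54.4 and 51.8 CPM, with an edgeR FDR of 0.208, while WT_20d was at 3592 CPM on day 14. The summed level of Igf2 and Klf5, the 2 remaining markers of the study, was 63.8 CPM on day 14 in WT_1-4. This sum was 3769 in WT_20d, 4.22 in N4_5-8 and 4.05 in N4_5-23. It does not give either gene alone, and its levels were not tested between lines. Nox4, the gene targeted in the knockout lines, had 7, 22, 21, 12 and 3 counts in WT_1-4, all at or above the floor. Of the 39 Hox genes listed 11 reached 50 counts, against 13512 of all 55573 genes. Of these 39, 0 rose or fell, again near the background of 2.12% and 3.54%.

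The changes of WT_1-4 were then set beside those of the other lines, which share no library with it. Of the 902 genes past 4-fold higher, 73.8% were past 2-fold higher on day 14 in N4_5-8, 73.7% in N4_5-23 and 47.3% in WT_20d, against 17.1%, 16.9% and 18.7% of all genes. Of the 651 past 4-fold lower, 60.2%, 72.5% and 54.2% were past 2-fold lower, against 13.5%, 13.3% and 16.7%. In all 3 lines 297 of the gains and 207 of the losses were found, and 96 and 92 in none. The opposite direction past 2-fold was taken in WT_20d by 97 of the gains (10.8%) and 48 of the losses (7.37%). In N4_5-8 it was taken by 13 (1.44%) and 8 (1.23%), and in N4_5-23 by 3 (0.333%) and 19 (2.92%). Each of these shares was below the share of all genes past 2-fold in that direction in the same line, given above. No gene passed edgeR's test of a different change from day 0 to day 14 in WT_1-4 than in the other 3 lines, with 2582 genes at an unadjusted p under 0.05 and 222 genes with DESeq2. For the whole course the counts were 0, 1283 and 221. A difference of WT_1-4 from each other line alone was not tested.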

How the data were processed

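RNA was sequenced from 20 libraries, of which 5 are WT_1-4. The authors aligned paired-end stranded reads to mm10 with STAR 2.6.0c and deposited expected counts per gene from RSEM 1.3.1, which divides reads that fit several genes. These were rounded to whole numbers. CPM used TMM factors, and descriptive changes used log2(CPM + 1) of genes with at least 50 counts in 1 WT_1-4 library. The test was edgeR 4.0.16 (quasi-likelihood, R 4.3.3) on all 20 libraries with terms for line, for day in the other lines and for day in WT_1-4, with 8 residual degrees of freedom, Benjamini-Hochberg adjustment and an FDR threshold of 0.01. The lone library of each WT_1-4 day is assumed to vary like the other 3 lines. DESeq2 1.42.0, other scalings, filters, pseudocounts and left-out lines or days were alternatives. The test was tried on simulated counts. Genes were named as the 5 largest by peak day or step and up to 6 a list, or looked up later. The members and lists were chosen with earlier results of these data known, and the lists of hypoxia, replication, ribosome, adhesion, stress, YAP, reprogramming and mitochondrial genes after values were seen, so their counts support nothing. Symbols follow GENCODE M21. Promoters are the first RefSeq entry of each symbol. Some members of the lists are not reported here by name.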

Additional observations from a re-analysis of the deposited data

Results flagged for a closer look

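3 of the genes named moved past 4-fold from day 0 to day 14 in WT_1-4 and past 4-fold the other way in another line, on the log2(CPM + 1) scale. Nrcam, a neural cell adhesion molecule, changed by -4.43 in WT_1-4 and 4.56 in WT_20d. Col6a1, a chain of collagen VI, changed by -2.45 in WT_1-4 and 4.85 in WT_20d. Slc26a7, an anion exchanger, changed by -4.32 in WT_1-4 and 2.85 in N4_5-23. Each value rests on 1 library per day, and the difference between the 2 lines was not tested.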

How the results depend on the processing

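For the change over the 5 days the count of genes was 242, and it was 1211 at an FDR of 0.05, 442 without a filter, 2190 with DESeq2, 766 with a linear trend in the 5 WT_1-4 libraries alone and 0 with no replicate block, where the line term was dropped. Leaving out 1 line or 1 day gave 0 to 1536. From day 0 to day 14 it was 1162, and it was 3080 at an FDR of 0.05, 2878 with DESeq2 and 0 with no replicate block. Its range was 0 to 3169 when 1 line was left out, and the ranges below are of the same kind. From day 0 to 3 DESeq2 called 10 genes and the range was 0 to 2. From day 3 to 5 DESeq2 called 1, and from day 5 to 7 it called 26. From day 7 to 14 it called 239, with 10 at an FDR of 0.05 and a range of 0 to 14. For the difference from the other lines DESeq2 called 221 genes over the course and 222 from day 0 to day 14, where the range was 0 to 7. Past 4-fold, a pseudocount of 0.25 gave 205, 8, 153 and 367 genes at the 4 steps and a pseudocount of 5 gave 20, 1, 13 and 29, against 85, 4, 67 and 155. From day 3 to 5 a count minimum of 200 gave 2. Over the course a pseudocount of 5 gave 766 in place of 1553 and 839 in place of 1839. The median gene changed by -0.10 from day 0 to day 14 with TMM and by 0.01 with upper quartile scaling. Of the 133 genes named, 49 rose or fell from day 0 to day 14, and all 49 lost the call without N4_5-8, without N4_5-23 and without the block. Genes near 0 counts changed sign: Dppa3 and Zfp42 were at 0.49 log2 units with DESeq2, and Trp63 was at 0.02 with upper quartile scaling and at 0.00 with DESeq2 and its size factors. Dppa3, Prdm14, Tbx5, Myl2 and Gm2436 were otherwise at 0.00 or -0.00. The cause of these differences was not tested.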
